A study of Rattus norvegicus with 8 samples.

Results

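The marrow stromal niche genes are a list of 10 genes that encode factors, adhesion molecules and surface or structural markers of the stromal and perivascular cells of bone marrow. They were found by symbol in the deposited gene table, where 8 of the 10 had a row among 19120 gene loci. These were Cxcl12, Kitlg, Il7, Angpt1, Vcam1, Pdgfrb, Nes and Thy1, each with a single row. Lepr and Pdgfra had no row of their symbol and were not analysed here under their own names. Of the 8, 7 passed the filter of a mean of at least 0.5 FPKM (read fragments scaled by locus length and by library size), as did 13742 loci in all, and Nes did not.

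The libraries are total RNA, depleted of ribosomal RNA, from femoral bone of male Wistar rats at 12 to 13 weeks of age. All rats carried titanium root-form implants in both femoral shafts, and the bone within 1 mm of the implant was taken 10 days after implantation. The hyperlipidemic group (4 libraries) had received a high-fat diet for 8 weeks and the normal group (4 libraries) a normal diet. Each rat had 2 implanted femora and the labels do not tie libraries to animals, so the p-values describe the spread among libraries, which may be technical.

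Bone marrow stroma holds blood-forming stem and progenitor cells in place and feeds them. Reticular cells around the sinusoids, marked by the leptin receptor and the PDGF receptors, release the chemokine CXCL12 and the cytokine stem cell factor (encoded by Kitlg), which act on CXCR4 and KIT of blood-forming cells. Interleukin 7 supports B cell precursors, angiopoietin 1 acts on the TEK receptor, and VCAM1 binds integrin alpha 4 beta 1 on blood cells. None of these genes belongs to stroma alone: Vcam1 is also made by endothelium and macrophages, Angpt1 by megakaryocytes, and Thy1 by fibroblasts, neurons and thymocytes.

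The samples held bone and blood together. The bone collagen gene Col1a1 was at 518 to 1055 FPKM in hyperlipidemic libraries and 1252 to 1942 FPKM in normal ones, and the globin gene Hbb at 6453 to 13261 and 5547 to 7062 FPKM. The libraries differed in ways beyond the list. Summed gene FPKM ran from 496578 to 584474 in hyperlipidemic and from 510668 to 906019 in normal libraries, loci of up to 1000 bp took 59.7% to 70.4% and 64.5% to 82.3% of it, and normal replicate 1 listed 31 loci at 0 that exceeded 10 FPKM in each other library. A value of 0 is therefore given below as listed at 0. Depth is unknown because FPKM carry no counts. In bulk bone, fewer cells of a type and less RNA per cell cannot be told apart.

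None of the 7 niche genes tested passed at an adjusted p under 0.05 (limma over all 13742 loci, Benjamini-Hochberg), where 1.39% of all loci did (0.146% higher and 1.24% lower). Of the 191 loci called, 165 spanned up to 1000 bp, a class that held 13.46% of the loci tested. In a fit of loci of at least 1000 bp, 3 of 11892 were called. The 7 niche loci tested all span 4815 bp or more, so the share among longer loci is the closer match. At an unadjusted p under 0.05 there were 3 of 7, against 13.0% of all loci: Vcam1 and Angpt1 with higher values in the hyperlipidemic group (8.61% of all loci) and Thy1 with lower ones (4.40%). That count was 1 of 7, Thy1 alone, under median-of-ratios scaling, array quality weights, a fit without a trend, and in 6 of the 8 fits that left out 1 library (those without hyperlipidemic replicates 1, 3 and 4 or normal replicates 1, 2 and 4). Of the 7, 4 had a log2 change above 0, as did 65.0% of all loci, and the median log2 change was 0.05 for the 7 and 0.18 for all loci. Median-of-ratios scaling moved the median of all loci down by 0.13, so changes are best read against that shift.

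**Figure D1:**
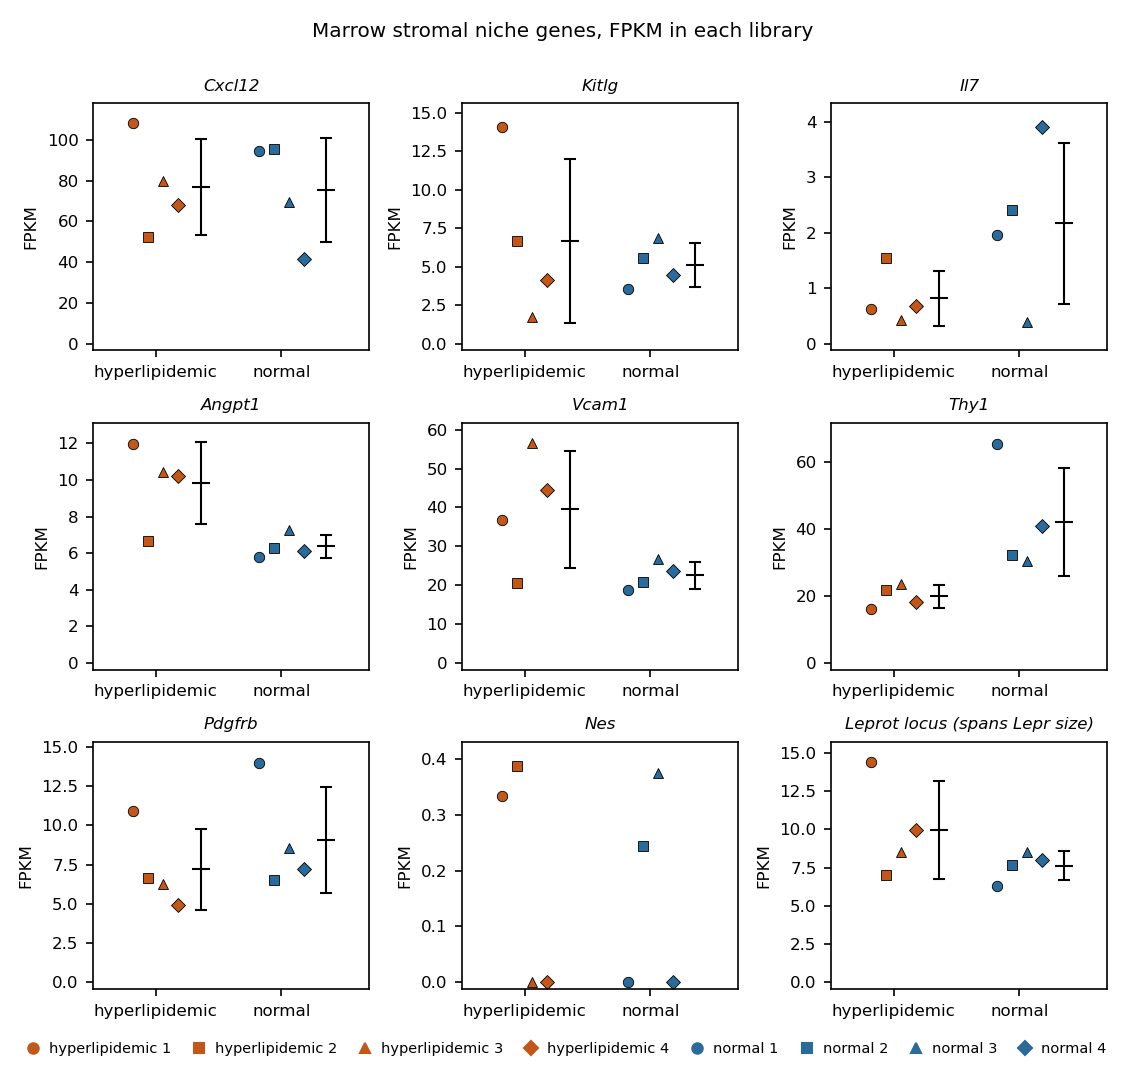
FPKM of the 8 niche genes with a row, and of the locus named Leprot, in each library (y axis, FPKM; hyperlipidemic left, normal right). Symbols mark the replicate number, and bars give the mean and SD of 4 libraries, left out for Nes where values are listed at 0. Thy1 is the gene whose groups are apart, at 16.05 to 23.8 FPKM in hyperlipidemic and 30.4 to 65.4 FPKM in normal libraries.

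Among the secreted factors, Cxcl12 was the most abundant niche gene of all and its mean level was nearly equal in the groups. Cxcl12, the chemokine that retains blood-forming cells in marrow, lies on chromosome 4 (149261044 to 149273891, Rnor_6.0). It measured 108, 52.2, 79.6 and 68.0 FPKM in hyperlipidemic replicates 1 to 4, against 94.7, 95.5, 69.5 and 41.6 FPKM in normal replicates 1 to 4. The groups overlapped throughout, with both the highest hyperlipidemic and the lowest normal library lying outside the other group's range. The means were 77.0 ± 23.6 and 75.3 ± 25.5 FPKM (SD, n = 4 each), with a log2 change of 0.05 (SE 0.31, limma adjusted p = 0.950). The 95% interval of the change, from -0.64 to 0.75, leaves room for moderate differences in either direction. The sign turned without hyperlipidemic replicate 1 (-0.12) or normal replicate 4 (-0.20), and under median-of-ratios scaling (-0.11) or array quality weights (-0.041).

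Kitlg, which encodes stem cell factor, was uneven among the hyperlipidemic libraries (chromosome 7, 42269784 to 42351054). Its values were 14.1, 6.69, 1.75 and 4.13 FPKM in hyperlipidemic replicates 1 to 4 and 3.52, 5.54, 6.87 and 4.47 FPKM in normal replicates 1 to 4. The hyperlipidemic group held both the highest and the lowest value, and the normal libraries lay between them. The log2 change was 0.09 (SE 0.47, adjusted p = 0.944, 95% interval -0.94 to 1.12). It turned to -0.32 without hyperlipidemic replicate 1, to -0.042 without normal replicate 1, to -0.047 under median-of-ratios scaling and to -0.011 under quantile normalization.

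Il7, the growth factor of lymphoid precursors, was the lowest of the tested niche genes (chromosome 2, 96439286 to 96474977). It measured 0.623, 1.55, 0.422 and 0.683 FPKM in hyperlipidemic libraries 1 to 4, against 1.96, 2.41, 0.392 and 3.92 FPKM in normal libraries 1 to 4. In the normal group 3 libraries exceeded every hyperlipidemic one, and normal replicate 3 was the lowest of all 8. The log2 change was -0.70 (SE 0.42, adjusted p = 0.486). Leaving out normal replicate 3 gave -1.05 and leaving out normal replicate 4 gave -0.44, and it was -1.10 with a pseudocount of 0.1 in place of 1; none of these passed over all loci.

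Angpt1, the ligand of the TEK receptor on endothelium and stem cells, had higher values in 3 of 4 hyperlipidemic libraries (chromosome 7, 81342280 to 81592206). It measured 12.0, 6.65, 10.5 and 10.2 FPKM in hyperlipidemic libraries 1 to 4 and 5.80, 6.30, 7.28 and 6.13 FPKM in normal libraries 1 to 4. Hyperlipidemic replicate 2 fell inside the normal range. The group means were 9.82 ± 2.25 and 6.38 ± 0.636 FPKM (SD, n = 4 each; 1.54-fold between means). The log2 change of 0.53 (SE 0.24, unadjusted p = 0.0488) did not pass over all loci (limma adjusted p = 0.382), and a two-sided exact permutation test over the 70 label assignments gave p = 0.0571. Over all settings tried the log2 change stayed between 0.38 and 0.69. Megakaryocyte markers had higher values alongside, 10 of 10, none past the threshold over all loci, with summed levels of 215 to 410 FPKM in hyperlipidemic and 109 to 244 FPKM in normal libraries. No megakaryocyte marker was at 0 in a hyperlipidemic library, while Gp6, Gp9 and Pf4 were among those listed at 0 in at least 1 normal library. Their median log2 change, 1.22, was 0.77 without normal replicate 1. Their part in the Angpt1 values was not tested.

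Of the adhesion and surface molecules, Vcam1 and Thy1 lay in opposite directions. Vcam1, the integrin ligand on stroma, endothelium and macrophages, lies on chromosome 2 (219071193 to 219097619). It measured 36.7, 20.6, 56.5 and 44.5 FPKM in hyperlipidemic libraries 1 to 4, against 18.9, 20.9, 26.8 and 23.6 FPKM in normal libraries 1 to 4. Here too 3 hyperlipidemic libraries exceeded every normal one and hyperlipidemic replicate 2 did not. The means were 39.6 ± 15.0 and 22.6 ± 3.45 FPKM (SD, n = 4 each; 1.75-fold between means). The log2 change was 0.71 (SE 0.29, unadjusted p = 0.0362, limma adjusted p = 0.349; two-sided exact permutation p = 0.114). It ran from 0.51 without hyperlipidemic replicate 3 to 0.98 without hyperlipidemic replicate 2.

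The summed markers of other cells that make Vcam1 overlapped between groups. Of 9 macrophage markers 5 had higher values and 4 lower, with summed levels of 168 to 243 FPKM in hyperlipidemic and 158 to 236 FPKM in normal libraries and none at 0 in any library. Among the 5, Cd163 measured 15.3, 8.32, 18.5 and 22.5 FPKM in hyperlipidemic libraries 1 to 4 and 4.27 to 10.2 FPKM in normal ones. Its log2 change was 1.11 (limma adjusted p = 0.220). As for Vcam1, 3 hyperlipidemic libraries exceeded every normal one and hyperlipidemic replicate 2 did not. Of 9 endothelial markers 4 were higher and 5 lower, with sums of 33.7 to 53.0 and 36.6 to 55.6 FPKM; Cldn5 and Sele were listed at 0 in at least 1 library. The median log2 change was 0.50 for the macrophage and -0.085 for the endothelial markers. Without normal replicate 1 the macrophage median was 0.028, and the endothelial median was 0.15 without hyperlipidemic replicate 4 and 0.0021 without normal replicate 2. The endothelial receptor gene Flt1 did not overlap, at 1.47 to 2.12 FPKM in hyperlipidemic and 2.24 to 3.43 FPKM in normal libraries (log2 change -0.34, limma adjusted p = 0.585). The part of these cells in the Vcam1 values was not tested.

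The bases before the start of Vcam1 are shown beside those of Cxcl12 and Kitlg, the factor genes with a log2 change near 0. Those of Angpt1 and Thy1 are not shown. Each is the 250 bases before the transcript start in RefSeq on GRCr8, a different build from that of the deposited coordinates, written 5′ to 3′ on the strand of the gene. Vcam1 is at chr2:206742784-206743033 (minus strand), Cxcl12 at chr4:152060531-152060780 (plus strand) and Kitlg at chr7:36782410-36782659 (plus strand). Capitals mark matches to a letter pattern for sites of NF-kB (GGG, NN, T, N and CCC without gaps, N being any base), searched on both strands.
Vcam1: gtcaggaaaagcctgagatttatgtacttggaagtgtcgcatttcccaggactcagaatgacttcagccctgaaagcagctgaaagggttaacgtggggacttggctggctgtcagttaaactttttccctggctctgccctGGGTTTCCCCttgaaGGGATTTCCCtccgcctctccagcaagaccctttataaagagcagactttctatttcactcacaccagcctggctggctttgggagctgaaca
Cxcl12: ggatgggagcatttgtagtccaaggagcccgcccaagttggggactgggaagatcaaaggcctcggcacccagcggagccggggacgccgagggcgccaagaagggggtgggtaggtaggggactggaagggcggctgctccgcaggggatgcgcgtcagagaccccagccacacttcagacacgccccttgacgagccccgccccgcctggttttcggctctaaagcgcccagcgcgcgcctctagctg
Kitlg: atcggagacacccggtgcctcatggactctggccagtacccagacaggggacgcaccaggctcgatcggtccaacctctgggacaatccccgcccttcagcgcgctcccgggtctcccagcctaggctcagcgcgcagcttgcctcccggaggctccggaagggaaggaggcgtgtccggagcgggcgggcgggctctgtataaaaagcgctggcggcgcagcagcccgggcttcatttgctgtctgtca
Vcam1 held 2 matches, GGGTTTCCCC at 108 to 99 bases and GGGATTTCCC at 93 to 84 bases before the start, and they do not overlap. The pattern was chosen with the Vcam1 sequence in view, so its match there was known beforehand and is no test. Of 33469 promoter windows of this length 4.42% held at least 1 match, and Vcam1 was the 1 niche gene of the 6 with a window in the table that did. Patterns for EBF factors (TCCC, NN and GGGA without gaps, 0.738% of windows) and forkhead factors (TGTTTAC, 3.21%), both searched on both strands, had no match among the 6. A match is a run of letters and not a measured binding site, and a link between matches and FPKM was not tested.

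Thy1, a surface glycoprotein of stromal cells, fibroblasts and thymocytes, was lower in every hyperlipidemic library (chromosome 8, 48382121 to 48386935). It measured 16.05, 21.7, 23.8 and 18.1 FPKM in hyperlipidemic libraries 1 to 4 and 65.4, 32.3, 30.4 and 40.8 FPKM in normal libraries 1 to 4. The groups did not overlap, which held for 7.94% of all tested loci, 4.19% in the higher and 3.75% in the lower direction. The means were 19.9 ± 3.47 and 42.2 ± 16.1 FPKM (SD, n = 4 each). The log2 change of -0.997 (SE 0.27, 95% interval -1.59 to -0.40, unadjusted p = 0.00365) did not pass over all loci (limma adjusted p = 0.150). A two-sided exact permutation test gave p = 0.0286, the lowest value possible with 4 libraries a group, for 1 of 7 niche genes so tested. Normal replicate 1 held the highest value, and without it the log2 change was -0.77. Over all settings tried it stayed between -1.16 and -0.68, with adjusted p-values from 0.0909 to 0.416.

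Markers of T cells and of osteoblasts were lower alongside Thy1. Of 9 tested T cell markers 8 had lower values, none past the threshold over all loci, with summed levels of 16.8 to 28.7 FPKM in hyperlipidemic and 28.1 to 45.6 FPKM in normal libraries; Cd3e was listed at 0 in hyperlipidemic replicates 3 and 4 and in normal replicate 4. Of 12 osteoblast markers 11 had lower values and 1, Bglap, passed over all loci, with sums of 1287 to 2207 FPKM and 2680 to 4294 FPKM. The Bglap locus spans 978 bp, and loci of up to 1000 bp were 13.46% of those tested and 165 of the 191 called. The Bglap call (limma adjusted p = 0.0201) was lost without hyperlipidemic replicate 1, 2 or 4 or normal replicate 4 (adjusted p = 0.0684 to 0.0935). Fibroblast markers were mixed, with 4 of 9 higher and 5 lower and sums of 263 to 394 and 275 to 412 FPKM. The part of these cells in the Thy1 values was not tested.

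**Figure D2:**
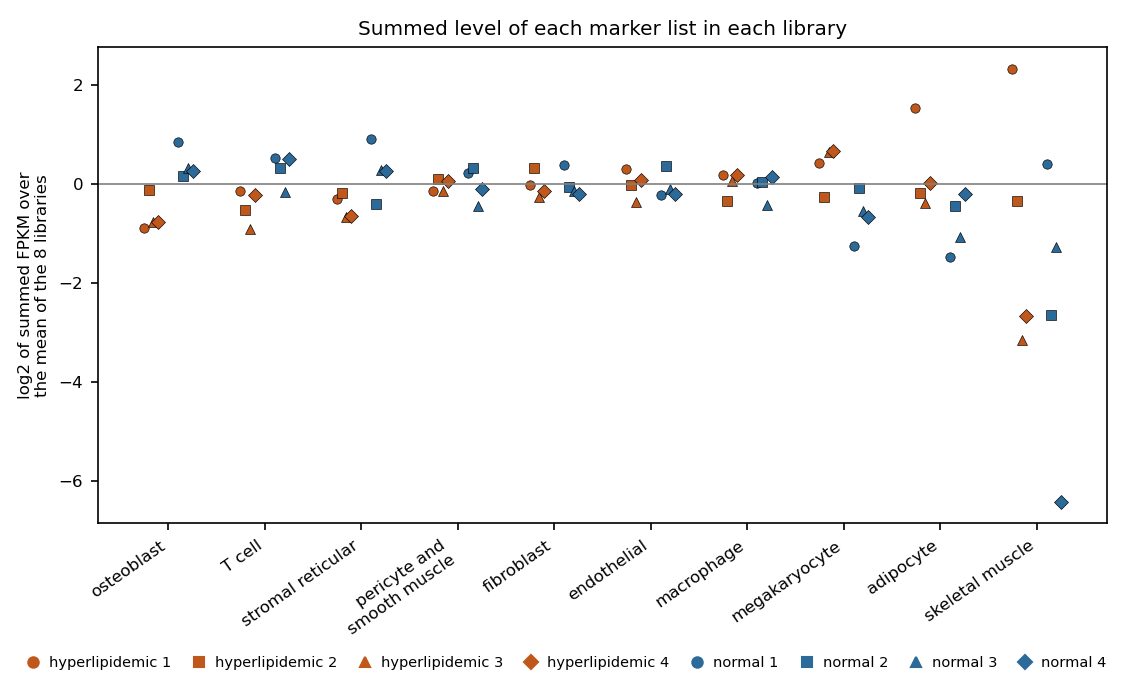
Summed FPKM of each marker list in each library, as log2 over the mean of the 8 libraries (y axis), with hyperlipidemic libraries left of normal ones for each list. The osteoblast sums do not overlap (1287 to 2207 FPKM in hyperlipidemic and 2680 to 4294 FPKM in normal libraries), whereas the pericyte, fibroblast, endothelial and macrophage sums do.

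Of the receptors and filaments that mark stromal cells, Pdgfrb, the PDGF receptor of pericytes and reticular cells, overlapped between groups (chromosome 18, 56364620 to 56406381). It measured 10.9, 6.68, 6.24 and 4.93 FPKM in hyperlipidemic libraries 1 to 4 and 14.0, 6.55, 8.59 and 7.25 FPKM in normal libraries 1 to 4. Replicate 1 was the highest library of each group. The log2 change was -0.30 (SE 0.30, adjusted p = 0.678), and between -0.49 and -0.076 over all settings. Pericyte and smooth muscle markers split evenly, with 5 of 10 higher and sums of 62.6 to 74.0 and 50.7 to 86.5 FPKM.

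Nes, the intermediate filament nestin of perivascular cells, was at 0.334 and 0.386 FPKM in hyperlipidemic replicates 1 and 2 and listed at 0 in replicates 3 and 4, against 0.245 and 0.374 FPKM in normal replicates 2 and 3 and 0 in replicates 1 and 4 (chromosome 2, 187344056 to 187352969). Each group thus had values above 0 in 2 libraries, all under the filter of 0.5, and no difference can be read at this level.

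Lepr itself was not measured under its own symbol, but a neighbouring name may hold its fragments. The locus named Leprot (chromosome 5, 120503475 to 120682283), singled out after its values were seen, spans 178809 bp. In RefSeq on GRCr8 the gene Leprot spans 12104 bp and Lepr, which overlaps it, 183467 bp, so the deposited Leprot locus has the size of Lepr and reads of the 2 genes cannot be told apart in it. It measured 14.4, 6.99, 8.54 and 9.95 FPKM in hyperlipidemic libraries 1 to 4 and 6.29, 7.69, 8.49 and 7.97 FPKM in normal libraries 1 to 4. The groups overlapped, with 3 hyperlipidemic libraries above every normal one (log2 change 0.31, SE 0.25, limma adjusted p = 0.597). The log2 change was 0.14 without hyperlipidemic replicate 1, 0.16 under median-of-ratios scaling and 0.059 without replicate 1 of both groups.

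Within each group the order of levels, in FPKM and so per length, was led by Cxcl12, which exceeded the next gene in all 4 libraries. Second came Vcam1 in the hyperlipidemic group, above Thy1 in 3 of 4 libraries with overlapping ranges, and Thy1 in the normal group, above Vcam1 in 4 of 4 libraries with no overlap of ranges. Then came Angpt1, Pdgfrb and Kitlg in the hyperlipidemic group. In the normal group Pdgfrb stood above Angpt1, in 4 of 4 libraries, and Kitlg followed. Neighbours among these 3 overlapped in range in both groups. Il7 lay below Kitlg in every library, and Nes was last.

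The libraries with high Vcam1 were those with high Angpt1. Hyperlipidemic replicates 1, 3 and 4 held the 3 highest values of both genes, and hyperlipidemic replicate 2 lay with the normal libraries in both. Because these 3 libraries stand apart from the other 5, no correlation coefficient is given for the pair. Of 21 pairs of tested niche genes compared by Pearson's r of log2(FPKM + 1), it had the lowest unadjusted p. None of the 21 passed an exact permutation test after Benjamini-Hochberg adjustment (lowest adjusted p = 0.135). Hyperlipidemic replicate 2 also had the lowest values of its group for Cxcl12 (52.2 FPKM), Hbb (6453 FPKM) and the summed megakaryocyte markers (215 FPKM), and the highest for summed osteoblast markers (2207 FPKM). The part of these in its Vcam1 and Angpt1 values was not tested.

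**Figure D3:**
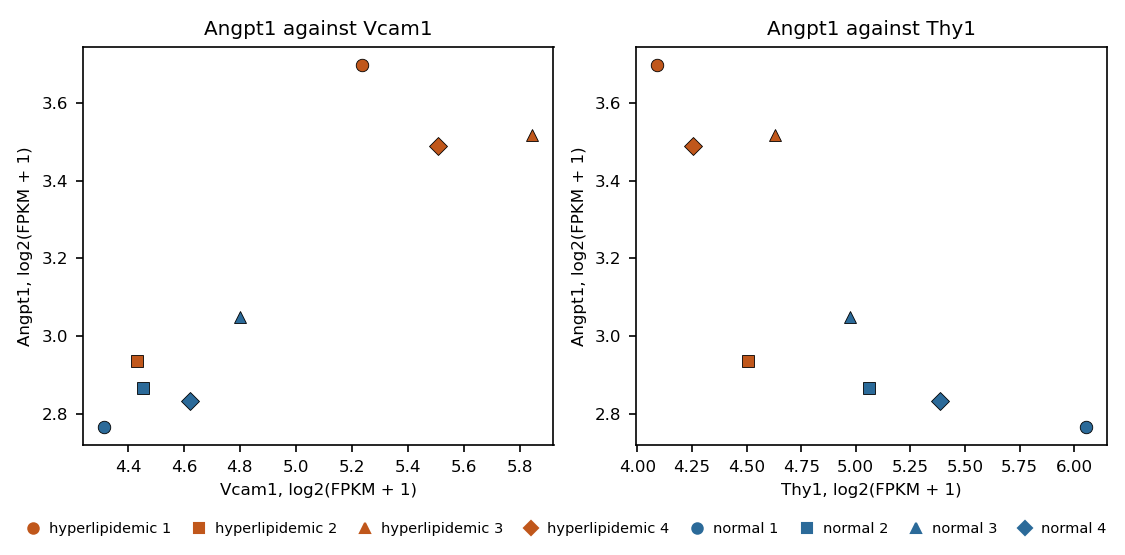
Angpt1 against Vcam1 (left panel) and against Thy1 (right panel), each axis in log2(FPKM + 1), 1 point per library. Hyperlipidemic replicates 1, 3 and 4 hold the 3 highest values of Vcam1 and Angpt1, and hyperlipidemic replicate 2 beside the normal libraries for Vcam1 and Angpt1.

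The loci whose pattern over the 8 libraries was most like that of a niche gene were taken by Pearson's r of log2(FPKM + 1) among 5861 named loci with a mean of at least 5 FPKM. The 3 nearest per gene were selected as the highest, so these r values carry no test. They included Qars and Nadk for Cxcl12 (r of 0.958 and 0.946), Lsm1, Fasn and Snrnp70 for Kitlg (0.901 to 0.959), Gsta4, Prim1 and Bub1b for Vcam1 (0.975 to 0.981), and Arpc1a, Rab8b and Kpnb1 for Angpt1 (0.970 to 0.987). For Pdgfrb they were Klf7, Pmf1 and F2rl2 (0.939 to 0.964), for Il7 Atp5e, Gnpda1 and Arrdc1 (0.914 to 0.955), and for Thy1 the locus Rn50_X_0750.2, Mrpl41 and Mrpl4 (0.955 to 0.960). No niche gene was among the 3 nearest of another. Il7 and Nes, at means of 1.49 and 0.167 FPKM, could not be listed. With 3 of 5861 loci kept per gene, absence says little about whether niche genes vary together.

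Receptors and partner molecules of the niche factors gave no call either. Of 24 listed genes 20 had a row and 18 were tested: 11 had higher and 7 lower values, none past the threshold over all loci (median log2 change 0.25; 0.18 for all loci). The median was 0.13 without normal replicate 4 and 0.091 under median-of-ratios scaling. Kit, the receptor of stem cell factor, had higher values in every hyperlipidemic library, at 8.74, 5.30, 6.52 and 6.43 FPKM in hyperlipidemic libraries 1 to 4 and 4.80, 4.34, 3.18 and 1.75 FPKM in normal ones (log2 change 0.82, SE 0.30, limma adjusted p = 0.303). Itgb1 and Itga4, which form the integrin that binds VCAM1, measured 54.0 ± 8.09 and 35.03 ± 9.93 FPKM (log2 change 0.64, adjusted p = 0.323) and 23.9 ± 4.72 and 16.3 ± 5.17 FPKM (0.55, 0.404) in hyperlipidemic and normal libraries (SD, n = 4 each). Il2rg, the shared chain of the interleukin 7 receptor, had 4.40 ± 1.91 and 8.77 ± 3.24 FPKM (log2 change -0.88, adjusted p = 0.357). The CXCL12 receptor Cxcr4 had a log2 change of -0.12 (adjusted p = 0.886) and the angiopoietin receptor Tek one of 0.40 (0.540).

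A ratio of factor to receptor within a library depends little on library scaling. Of 5 ratios planned 3 could be computed, since Il7r and Pdgfra were not analysed here. The log2 ratio of Cxcl12 to Cxcr4 was 0.55 ± 0.46 in hyperlipidemic and 0.37 ± 0.43 in normal libraries (SD, n = 4 each; two-sided exact permutation p = 0.6). That of Kitlg to Kit was 0.63, 0.29, -1.45 and -0.53 in hyperlipidemic libraries 1 to 4 and -0.36, 0.29, 0.91 and 0.99 in normal libraries 1 to 4, a difference of -0.73 (exact permutation p = 0.229). It was -0.33 without hyperlipidemic replicate 3 and -1.02 without hyperlipidemic replicate 1. That of Angpt1 to Tek was 0.69 ± 0.21 and 0.56 ± 0.27 (n = 4 each; exact permutation p = 0.486), and the difference ran from 0.040 to 0.25 with single libraries left out. Each p was 0.6 after Benjamini-Hochberg adjustment over the 3, and the groups overlapped in all of them. The difference for Cxcl12 to Cxcr4, 0.18, was -0.0017 without normal replicate 1, where Cxcr4 stood at 106 FPKM.

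Other genes of stromal reticular cells were mixed. Of 20 listed genes 19 were tested, 10 with higher and 9 with lower values, none past the threshold over all loci (median log2 change 0.10). The 4 with the smallest p were all lower. Igfbp5, a binding protein of insulin-like growth factors, measured 43.4, 27.6, 29.5 and 30.6 FPKM in hyperlipidemic libraries 1 to 4 and 78.7, 58.6, 52.2 and 72.7 FPKM in normal libraries 1 to 4, without overlap (log2 change -0.98, SE 0.22, limma adjusted p = 0.0695). The chemokine Cxcl14 had 12.4 ± 5.88 and 27.4 ± 14.3 FPKM (log2 change -1.06, adjusted p = 0.277), the complement inhibitor Serping1 18.7 ± 3.03 and 52.1 ± 34.6 FPKM (-1.17, 0.329), and the growth factor Mdk 2.15 ± 2.54 and 9.50 ± 6.12 FPKM (-1.80, 0.2997; SD, n = 4 each). The transcription factors of the lineage, Foxc1 and Ebf3, had log2 changes of 0.55 and 0.49 (adjusted p = 0.654 and 0.616). The list median changed sign in 9 of 20 settings, between -0.21 and 0.22.

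**Figure D4:**
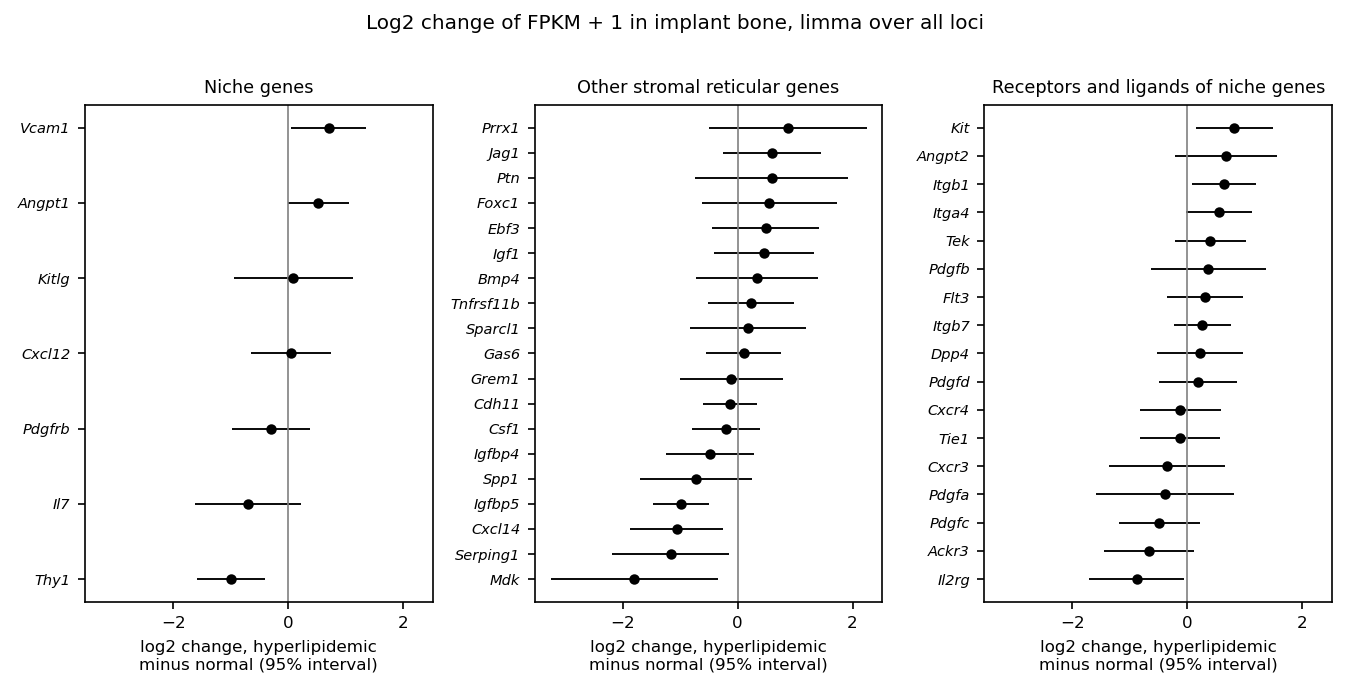
Log2 change of FPKM + 1, hyperlipidemic minus normal (x axis), with 95% intervals from limma, for the tested niche genes (left), other stromal reticular genes (middle) and receptors and partners that are reported (right). Intervals lie below 0 for Thy1 (-0.997), Igfbp5 (-0.98), Cxcl14, Serping1, Mdk and Il2rg, and above 0 for Vcam1 (0.71), Angpt1, Kit and Itgb1. No gene shown passed over all loci.

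Long non-coding RNAs lay within or near 4 of the niche genes. Of 10 within 50 kb, 8 overlapped a niche locus (4 in Vcam1 and 4 in Angpt1) and 9 were tested. None passed (limma over 14233 lncRNAs, where 0.0843% did), 1 had an unadjusted p under 0.05 (7.37% of all lncRNAs, 6.02% in the higher direction), and all 9 had a log2 change above 0, as did 69.0% of all lncRNAs tested. The 1 was MSTRG.115411.1 in Angpt1 (chromosome 7, 81543930 to 81546050). It measured 4.16, 2.43, 5.08 and 3.82 FPKM in hyperlipidemic libraries 1 to 4 and 0, 1.16, 2.00 and 1.82 FPKM in normal libraries 1 to 4. Its log2 change of FPKM + 0.1 was 2.19 (limma adjusted p = 0.672). With normal replicate 1 listed at 0, this size depends on the pseudocount. The 4 transcripts in Vcam1 had log2 changes of 1.66 to 2.30 (SE 1.51 to 1.65, adjusted p = 0.690 each), where the median of all lncRNAs tested was 0.78. Each was listed at 0 in 2 or 3 normal libraries, so these sizes depend on the pseudocount of 0.1. For MSTRG.115419.1 in Angpt1 the log2 change was 0.43, though its mean was lower in hyperlipidemic libraries (0.381 against 1.24 FPKM). The transcript nearest Nes, 31276 bp away, was at 4.36 FPKM in hyperlipidemic replicate 1 and listed at 0 in the other 7 libraries, and that nearest Thy1, 2302 bp away, was under the filter. The table gives no strand, so reads of a host gene's introns and of these transcripts cannot be told apart.

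Among circular RNAs, 2 came from Vcam1 and none of the 774 from another niche gene. The circle circRNA_8462_Vcam1 was at 0.221, 0.0999 and 0.235 FPKM in hyperlipidemic replicates 1, 2 and 4 and listed at 0 in the third and in all normal libraries. The circle circRNA_8470_Vcam1 was at 0.209, 0.0946 and 0.215 FPKM in the same 3 hyperlipidemic libraries and at 0.0558 FPKM in normal replicate 2. Of the pair circRNA_8470_Vcam1 alone passed the filter of 4 libraries above 0 and was not called (limma adjusted p = 0.251; 2.46% of 568 circRNAs were). Without that filter circRNA_8462_Vcam1 was called (adjusted p = 0.0332), as were 28.6% of 774 circRNAs. Of all circRNAs, 54.8% to 95.5% were above 0 in hyperlipidemic and 13.8% to 67.3% in normal libraries. The part of that in the Vcam1 circles was not tested.

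**Figure D5:**
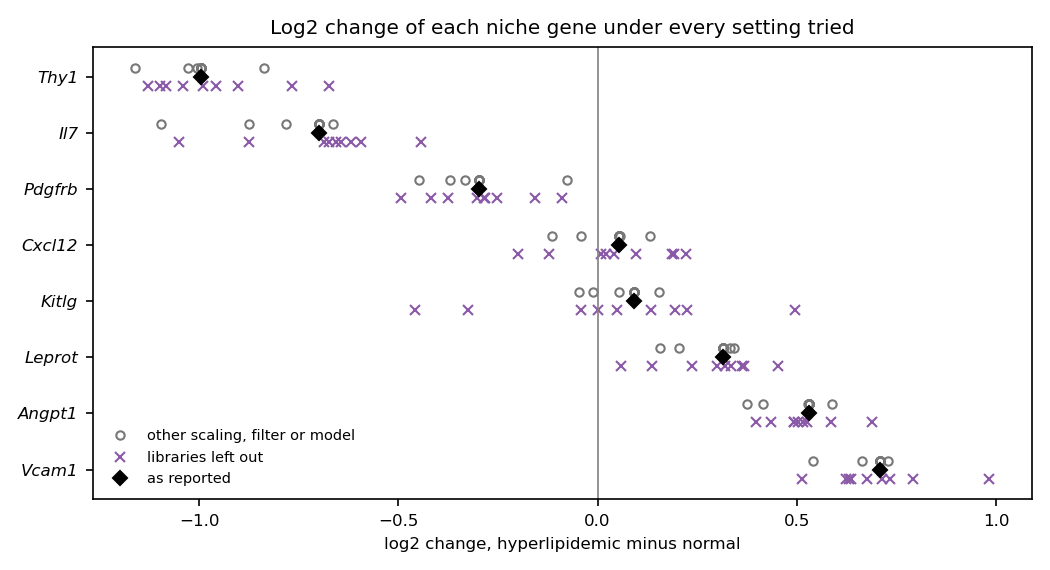
Log2 change, hyperlipidemic minus normal (x axis), of each niche gene and the Leprot locus as reported (diamonds), under other scalings, filters or models (circles) and with libraries left out (crosses). Cxcl12 and Kitlg lie on both sides of 0, whereas Thy1 stays between -1.16 and -0.68 and Vcam1 between 0.51 and 0.98.

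Among the most abundant markers of the other cell types, the groups did not overlap for Col1a1 and Sparc of osteoblasts, with log2 changes of -1.14 and -0.97 (limma adjusted p = 0.122 and 0.174). The platelet chemokines Pf4 and Ppbp had log2 changes of 2.103 and 1.96 (adjusted p = 0.477 and 0.170), and the endothelial and platelet factor Vwf one of 0.90 (0.275). Pf4 was listed at 0 in normal replicate 1, and its log2 change without that library was 0.53. Adipocyte markers had higher values for 8 of 10, with sums of 112 to 419 FPKM in hyperlipidemic and 52.1 to 127 FPKM in normal libraries. Among them Adipoq, which encodes adiponectin, passed over all loci (log2 change 3.52, limma adjusted p = 0.0141), and the abundant Fabp4 (2.45, 0.365) and Cfd (0.46, 0.557) did not. Fabp4 was listed at 0 in normal replicate 1, without which its log2 change was 1.20. Adipoq was at 4.79 to 47.2 FPKM in hyperlipidemic libraries, at 0.0994 FPKM in normal replicate 2 and listed at 0 in the other normal libraries. The Adipoq call was lost without normal replicate 1 (adjusted p = 0.0686), without normal replicate 4 (0.0529) and among loci of at least 1000 bp (0.0895). Macrophage Cd68 and C1qc had log2 changes of -0.56 and 0.54, T cell Cd4 and Cd8a of -0.049 and -0.62, and fibroblast Fn1 and S100a4 of 0.19 and 0.16, all with overlapping groups. Overlap was also seen for pericyte Myl9 (0.41) and Rgs5 (-0.59), endothelial Eng (-0.58), Schwann cell Mbp (0.12) and Ncam1 (-0.73), muscle Acta1 (-0.14), and Hbb (0.77) and S100a8 (0.20) of blood cells. Muscle Mylpf reached 14.2 FPKM in a hyperlipidemic library and was listed at 0 in every normal one. Adipocytes and megakaryocytes are among the cells of marrow, and their part in the niche gene values was not tested.

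The authors' deposited table likewise held no niche gene with a q-value under 0.05. In the authors' deposited table the lowest q-value among the 8 was 0.805, shared by Angpt1 (p = 0.0204, fold change 1.29) and Thy1 (p = 0.0216, fold change 0.576), where the fold change is hyperlipidemic over normal by a calculation that the labels and headers do not describe. In the authors' deposited table Cxcl12 had a log2 value of -0.19 and Kitlg one of -0.083, opposite in sign to the differences of mean log2 values above.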

How the data were processed

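The authors deposited FPKM per gene locus, lncRNA and circRNA for each library, with a fold change (ratio) of hyperlipidemic over normal, its log2 value, and a p-value and q-value of a test that is not stated. The tools named are StringTie 1.3.3b, HISAT2 2.1.0 and bcl2fastq 1.8.4, and the build is Rnor_6.0, per the submitters' processing notes. Roles of the tools, annotation and filters: not given in the sources used here. Per the labels' protocols, RNA (3 ug) went into dUTP libraries read as pairs of 150 bp. For circRNAs the deposited table's name alone gives the unit. Groups came from the labels, 0 per-sample columns stayed unmatched, and 3 further sheets were not used.

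Values were log2-transformed with a pseudocount of 1 (lncRNAs and circRNAs: 0.1) and compared with limma 3.58.1 in R 4.3.3, with a trend in the prior variance. Loci needed a mean of 0.5 FPKM, lncRNAs 0.1, and circRNAs values above 0 in 4 libraries. Adding 1 understates changes of low genes such as Il7. Named were all members, the 4 smallest p of the stromal and partner lists, and the 3 loci most like each member. Of each marker list the 2 genes with the highest mean were named, and lncRNAs nearest each member. Adipoq, Bglap, Cd3e, Cd163, Flt1, Foxc1, Ebf3, Cxcr4, Tek and the Leprot locus were named after their values were seen. Of the loci most like Cxcl12, 1 is not reported here. The members, lists and tests were chosen with earlier results of these data known. On simulated data for the gene comparison over 13742 loci, 28 of 100 loci shifted by 1 (log2) and 93 of 100 shifted by 3 were found, with 10 false calls. The shifted loci were drawn from those with a mean log2(FPKM + 1) above 3, and the noise was normal and independent between libraries. Detection of lower loci, such as Il7 and Kitlg, was not simulated. Single values were compared by exact permutation (scipy 1.17.1). Alternatives were other pseudocounts, filters, scalings, weights, a block and libraries left out. Lists of Schwann cell, skeletal muscle, adipocyte and blood cell markers were summed too, with 5 of 6, 6 of 7, 8 of 10 and 4 of 9 tested members higher.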

Additional observations from a re-analysis of the deposited data

Results flagged for a closer look

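Of 66 groups of 4 libraries checked for a library far from the other 3, 6 were picked out, where chance picks about 5% of groups. In hyperlipidemic replicate 1 the summed adipocyte markers (419 FPKM, next library 148) and skeletal muscle markers (83.0 FPKM, next 13.1) stood above the rest of the group. In hyperlipidemic replicate 2 the summed osteoblast markers were high (2207 FPKM, next 1411) and the summed blood cell markers low (14568 FPKM, next 21729). In normal replicate 2 the summed endothelial markers were high (55.6 FPKM, next 39.8), and in normal replicate 1 Cxcl14 was (48.8 FPKM, next 21.3). No niche gene was picked out in either group.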

How the results depend on the processing

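No niche gene was called under any of the 20 alternative settings, and no lncRNA near one under 14. Summing the rows of a symbol could not change a result, because each niche gene has a single row. For lncRNAs the windows of 10 and 100 kb reused the main fit. Without the filter on low circRNA values 1 circRNA of Vcam1 was called (adjusted p = 0.0332), as were 28.6% of all circRNAs. Of all loci 191 were called (20 higher, 171 lower), against 107 without a filter, 3 among loci of at least 1000 bp, 116 among loci above 0 in all 8 libraries (an alternative chosen after seeing the data) and 109 to 215 with each library left out (111, 115 and 109 without hyperlipidemic replicates 1, 3 and 4). The sign turned for Cxcl12 (0.05) under median-of-ratios scaling (-0.11) and array quality weights (-0.041), and ran from -0.20 to 0.22 with each library left out. For Kitlg (0.09) it turned under median-of-ratios scaling (-0.047), quantile normalization (-0.011) and without replicate 1 of both groups (-0.46), and ran from -0.32 to 0.49 with each library left out. The Cxcl12 to Cxcr4 difference ran from -0.0017 to 0.34 with each library left out. The macrophage median (0.50) ran from 0.028 to 0.65 with each library left out and was -0.081 without replicate 1 of both groups. The megakaryocyte median (1.22) ran from 0.77 to 1.54 with each library left out and was 0.60 among loci above 0 in all 8 libraries, which leave out Gp6, Gp9 and Pf4 among others. The causes were not tested. Vcam1, Angpt1, Pdgfrb, Il7 and Thy1 kept their sign throughout, but the block, trend and filter settings leave a log2 change as it was.

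Replicate numbers are shared by the groups, and the labels do not say that they mark pairs. Same-numbered libraries deviated together little (r of 0.026, 0.13, 0.053 and 0.011 across loci), yet 5 of 8 libraries matched their own number best. These values do not settle whether the numbers mark pairs. The main fit leaves the libraries unpaired. With a replicate block 151 loci were called and 0 niche genes, and the lowest adjusted p among these was 0.282 (Thy1). Depth is unknown without counts, so what it limits cannot be stated.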
